A study of Mus musculus with 15 samples.

Results

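Dystrophic skeletal muscle and dystrophic heart were compared directly in vehicle-treated DBA/2-mdx mice. The 8 libraries were chosen by their labels alone, as the 4 tibialis anterior (TA) muscles and the 4 hearts of the vehicle groups, out of 15 bulk RNA-seq libraries in the study. The TA is a fast-contracting flexor of the ankle. According to the labels, the mice of all 15 libraries carried the DBA/2J-mdx genotype. In it, a premature stop in the dystrophin gene removes dystrophin from striated muscle on an inbred background with severe disease. Neither tissue therefore had a dystrophin-bearing counterpart among these libraries. TA muscles were taken from mice 5 months old, after 2 months of vehicle begun at 3 months of age, and hearts from mice 16 months old, after 4 months of vehicle begun at 12 months. Vehicle was given 2 times per week in both. Each group held 2 males and 2 females. Tissue, age, length of vehicle dosing and the set of mice therefore changed together, and their parts in any difference below cannot be told apart. The remaining 7 libraries came from mice given the senolytic drugs dasatinib and quercetin (D+Q), 4 TA muscles and 3 hearts at the matching ages, and were used to measure the tissue difference again and to test whether it differed with treatment.

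Skeletal fibres and cardiomyocytes are both striated, but build the same sarcomere from different members of gene families and release calcium through different channels. Without dystrophin, the link between the cytoskeleton and the surrounding matrix is lost, and contracting cells tear. Skeletal fibres that die are rebuilt by satellite cells, the resident stem cells of muscle, while cardiomyocytes scarcely renew, and in both tissues fibrous matrix takes the place of lost muscle. Senescent cells, which have left the cell cycle for good and secrete inflammatory and matrix-degrading factors, are the target of D+Q.

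Expression was given as TPM, a transcript abundance corrected for length and scaled to a total of 1000000 in each library. TPM keeps no read depth, so the precision of every value below was judged from the spread between mice. Of 56980 genes in the table, 16893 reached 0.5 TPM in 3 or more of the 8 mice. These were fitted with limma on the scale of log2(TPM + 0.5), labelled sex being a covariate, and every p below is a Benjamini-Hochberg adjusted p over all of them. Fold changes are TA minus heart on this scale, so positive values mean higher in TA. The pseudocount of 0.5 understates the difference for genes close to 0 in one tissue. Such genes could pass the filter only through the other tissue, which fixed their direction, so counts and medians over the tested genes of a list are a description and no support. Between 23956 and 24393 genes were above 0 in TA and between 24089 and 25378 in heart. Across genes, libraries correlated at 0.962 to 0.976 within TA, at 0.976 to 0.983 within heart and at 0.832 to 0.843 between tissues. The first principal component of the 500 most variable genes, holding 86.9% of their variance, separated the tissues. In each of the 8 mice, Xist and 4 genes of the Y chromosome fitted the sex on the label.

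The makeup of the libraries differed between tissues, which bears on every scaled value. Nuclear protein-coding genes took 40.5% to 50.3% of all TPM in TA and 33.0% to 35.7% in heart, with no overlap. The small RNAs 7SL and 7SK (Rn7s1, Rn7s2 and Rn7sk) took 8.34% to 11.6% in TA and 17.2% to 18.3% in heart. The mitochondrial genome took a like share in both, 22.7% to 29.1% and 26.2% to 28.6%. The same 10 genes were the most abundant in both tissues, namely Rn7s1, Rn7s2, Rn7sk, the mitochondrial genes mt-Atp8, mt-Co1 and mt-Nd1 and the mitochondrial-like copies Atp6-ps, Gm28661, Gm28437 and Gm10222, whose near-identical sequences make each single value uncertain. The median gene differed by 0.16 on the log2 scale as deposited, by 0.00 after median-of-ratios scaling and by -0.21 when libraries were scaled to equal totals of nuclear protein-coding genes, a scaling chosen after the data had been seen. Leaving out 1 mouse moved the first of these values to between 0.098 (without TA replicate 2) and 0.24 (without TA replicate 4). Values below are as deposited, and counts of gene groups under the last scaling, called protein-coding scaling, are given where they differ.

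Defining markers matched the tissue labels in all 8 libraries. Acta1, skeletal alpha-actin, stood at 10241 to 15973 TPM in TA and 286 to 644 in heart. The cardiac troponin I gene Tnni3 stood at 3775 to 4106 TPM in heart and 0.207 to 0.483 in TA, and the cardiac thick-filament gene Mybpc3 at 559 to 629 and 0 to 0.0494. All 4 hearts also held atrial RNA, with the atrial light chain Myl7 at 94.1, 730.1, 541 and 283 TPM in replicates 1 to 4, the order used for single mice throughout. Myl7 was listed at 0 in every TA.

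A large part of the transcriptome differed between the tissues. By the thresholds of the study, an adjusted p under 0.05 with a change of more than 0.5 log2 units in either direction, 6572 genes were called, 38.9% of those tested. Of these, 4073 (24.1%) were higher in TA and 2499 (14.8%) higher in heart, the shares beside which the counts of gene groups as deposited stand. The balance between the directions depended on the scaling, being 2977 against 3285 after median-of-ratios scaling and 2028 against 4717 when scaled to nuclear protein-coding genes. Group counts given with protein-coding scaling stand beside the last pair, out of the same 16893 genes. TPM of all 4 TA muscles lay above all 4 hearts for 26.7% of tested genes and below them for 15.3%. Among called genes, 123 were more than 4 log2 units higher in TA and 114 more than 4 units higher in heart, and 19 and 12 differed by more than 8 units. Protein-coding genes were called higher in TA in 25.6% of 13256 cases and higher in heart in 14.6%, whereas long non-coding RNAs split evenly, with 21.3% of 1410 in each direction. In bulk tissue, fewer cells of a type and less RNA per cell cannot be told apart, which holds for every result here.

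**Figure D1:**
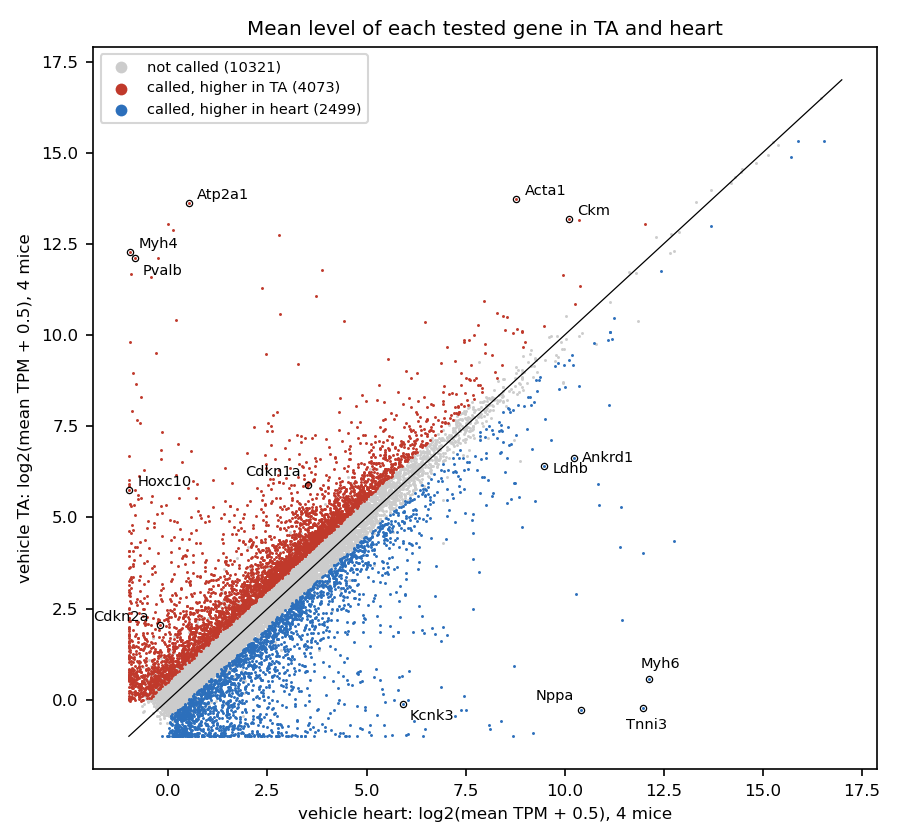
Mean TPM of 16893 genes in 4 vehicle hearts (x axis) and 4 vehicle TA muscles (y axis), both as log2(mean TPM + 0.5), with called genes coloured by direction and the diagonal marking equal levels. Many of the genes farthest from the diagonal encode contractile or calcium-handling proteins, with Myh4, Pvalb and Atp2a1 near 0 in heart and Tnni3, Myh6 and the natriuretic peptide gene Nppa near 0 in TA.

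Most of the widest differences fell in the sarcomere, where each tissue used its own set of proteins. All 14 genes of the fast skeletal sarcomere were called higher in TA, with a median log2 fold change of 10.11, and 11 of 14 cardiac sarcomere genes were higher in heart, with a median of -6.85. These counts were the same under all 3 other scalings tried. Fast-sarcomere genes made up 11.9% to 12.5% of nuclear protein-coding TPM in TA and 0.151% to 0.262% in heart, and cardiac-sarcomere genes 0.612% to 1.13% and 8.12% to 9.33%. Myh4, the myosin heavy chain of the fastest (type IIb) fibres, was at 5678, 4462, 4857 and 4751 TPM in the TA muscles and at 0.00369, 0.0396, 0 and 0.00539 TPM in the hearts. Its fitted difference was 13.23 log2 units (SE 0.10, adjusted p = 2.6e-12). Myh6, the alpha heavy chain of the adult mouse ventricle, was at 4002, 4276, 4668 and 4877 TPM in the hearts and 0.945, 1.89, 0.631 and 0.483 TPM in the TA muscles, a difference of -11.63 log2 units (SE 0.24, adjusted p = 7.4e-10). For both genes the tissues lay far apart beside the spread within either tissue. On GRCm39, Myh4 (ENSMUSG00000057003) lies at chromosome 11, 67128336 to 67151274, and Myh6 (ENSMUSG00000040752) at chromosome 14, 55179367 to 55205887.

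Promoters of 4 genes are shown because each was abundant in one tissue and far lower in the other, Myh4 and Acta1 in TA and Nppa and Myh6 in heart. Each sequence is the 250 bases before the transcription start, read 5′ to 3′ on the strand of the gene, from RefSeq on GRCm38.p6. Capitals mark matches, on either strand, to 5 motifs, and overlapping matches run together. The E-box bound by MyoD-family factors was searched as CAGCTG. The TEAD or MCAT site was searched as CATTCC. The GATA site had 4 spellings, of which one was AGATAA, another was AGATAG and the remaining were TGATAA as well as TGATAG. The MEF2 site and the CArG box bound by serum response factor were the other motifs.
Myh4, chr11:67237562-67237811, plus strand: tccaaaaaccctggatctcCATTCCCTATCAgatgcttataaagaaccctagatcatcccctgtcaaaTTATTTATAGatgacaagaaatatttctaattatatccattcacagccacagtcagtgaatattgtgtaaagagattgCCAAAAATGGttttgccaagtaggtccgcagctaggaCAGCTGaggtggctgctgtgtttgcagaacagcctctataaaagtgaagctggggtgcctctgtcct
Acta1, chr8:123894776-123895025, minus strand: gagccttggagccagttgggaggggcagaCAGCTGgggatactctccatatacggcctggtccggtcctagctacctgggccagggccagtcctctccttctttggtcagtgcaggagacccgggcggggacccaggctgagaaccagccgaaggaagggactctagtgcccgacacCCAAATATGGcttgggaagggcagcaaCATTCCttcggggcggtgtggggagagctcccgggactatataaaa
Nppa, chr4:148000472-148000721, plus strand: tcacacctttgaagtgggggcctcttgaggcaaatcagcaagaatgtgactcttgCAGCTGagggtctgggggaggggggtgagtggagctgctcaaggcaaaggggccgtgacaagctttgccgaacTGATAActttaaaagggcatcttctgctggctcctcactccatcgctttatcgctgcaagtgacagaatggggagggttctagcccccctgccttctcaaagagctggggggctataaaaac
Myh6, chr14:54966608-54966857, minus strand: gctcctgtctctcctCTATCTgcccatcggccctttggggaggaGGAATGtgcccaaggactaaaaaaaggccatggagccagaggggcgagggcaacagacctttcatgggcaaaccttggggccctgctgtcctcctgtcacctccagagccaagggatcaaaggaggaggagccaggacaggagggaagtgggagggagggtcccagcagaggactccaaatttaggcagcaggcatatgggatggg
The Myh4 window held 1 match to each of the 5 motifs. In the Acta1 window the E-box, the MCAT site and the CArG box each matched 1 time, in the Nppa window the E-box and the GATA site, and in the Myh6 window the GATA and MCAT sites. Among the 100 called genes with the largest differences in each direction, at a mean of at least 10 TPM and with no overlap between tissues, 67 of the TA genes and 66 of the heart genes had a promoter in the table. CAGCTG occurred in 37.3% of the TA windows and 16.7% of the heart windows, beside 14.7% of all 27025 genes in the table. GATA sites occurred in 19.4% and 36.4%, beside 29.7% of all, and the CArG box in 2.99% and 9.09%, beside 1.62%. MCAT sites occurred in 16.4% and 24.2%, beside 14.4%, and the MEF2 site in 8.96% and 3.03%, beside 3.42%. These are counts of letters in a window and say nothing of binding.

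Fast regulatory proteins followed Myh4. Fast skeletal troponin T, Tnnt3, averaged 8522 ± 626 TPM in TA (SD, n = 4) and 0.495 ± 0.284 in heart, the fast troponin I gene Tnni2 averaged 4465 ± 328 and 0.330 ± 0.196, and the regulatory light chain Mylpf averaged 7513 ± 1134 and 0.591 ± 0.277. Other fast myosins ranked below Myh4, with type IIx Myh1 at 2681 to 3979 TPM and type IIa Myh2 at 206 to 781 in TA. The order IIb, IIx, IIa held in all 4 TA muscles. The other fast-fibre genes among the 12 largest differences were the troponin C gene Tnnc2 (2962 to 3204 TPM in TA), the light chain Myl1 (5588 to 7288), the alpha-actinin Actn3 (1246 to 1561) and the Z-disc protein Myoz1 (450.1 to 941), with at most 8.95 TPM in any heart, together with Mybpc1, the myosin-binding protein C of slow fibres (775 to 984).
Slow-fibre genes were mixed in direction, with 4 of 6 higher in TA (3 with protein-coding scaling) and 1 higher in heart. That one was Myh7, the slow and beta-cardiac heavy chain, at 1400.4, 1239, 1331 and 1049 TPM in the hearts and 0.977, 24.5, 0.402 and 2.05 TPM in the TA muscles (log2 fold change -8.68 (SE 0.71), adjusted p = 9.2e-06). The slow troponin I Tnni1 was at 7.14 to 27.1 TPM in TA and 0 to 0.158 in heart, while Tnnt1, the slow troponin T, overlapped between tissues (6.65 to 41.6 and 8.77 to 10.9 TPM, adjusted p = 0.086) and was called only without TA replicate 3 (1.0997, adjusted p = 0.029).

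On the cardiac side, Tnni3 averaged 4018 ± 162 TPM in heart (SD, n = 4) and 0.348 ± 0.124 in TA, giving the most negative fold change among genes of at least 10 TPM (-12.22, SE 0.12, adjusted p = 5.9e-12). Myl2, the ventricular regulatory light chain that slow fibres also use, was at 7254, 6000.2, 7536 and 7183 TPM in the hearts and at 7.01, 45.8, 4.46 and 21.9 TPM in the TA muscles. TA replicates 2 and 4 thus carried more of it than replicates 1 and 3, though far less than any heart. Actc1 and Tnnt2, the cardiac actin and troponin T that skeletal muscle also makes while it forms, were not silent in TA, at 40.6 to 86.4 and 10.1 to 28.6 TPM, and reached 1753 to 1996 and 3624 to 4384 in heart. Outside the contractile list, the 12 largest differences towards heart held Ptgds, a prostaglandin D synthase (294 to 387 TPM in heart, 0 to 0.358 in TA), and Dsp, the desmoplakin of desmosomes (264 to 299.6 and 0.0172 to 0.170). Structural genes used in both tissues lay closer. The Z-disc alpha-actinin gene Actn2 averaged 634 ± 94.1 TPM in TA and 626 ± 40.9 in heart (log2 fold change 0.01, adjusted p = 0.96), and titin, Ttn, 2605 ± 619 and 1347 ± 127 (log2 fold change 0.92, adjusted p = 0.0021, a call lost when scaled to nuclear protein-coding genes).

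**Figure D2:**
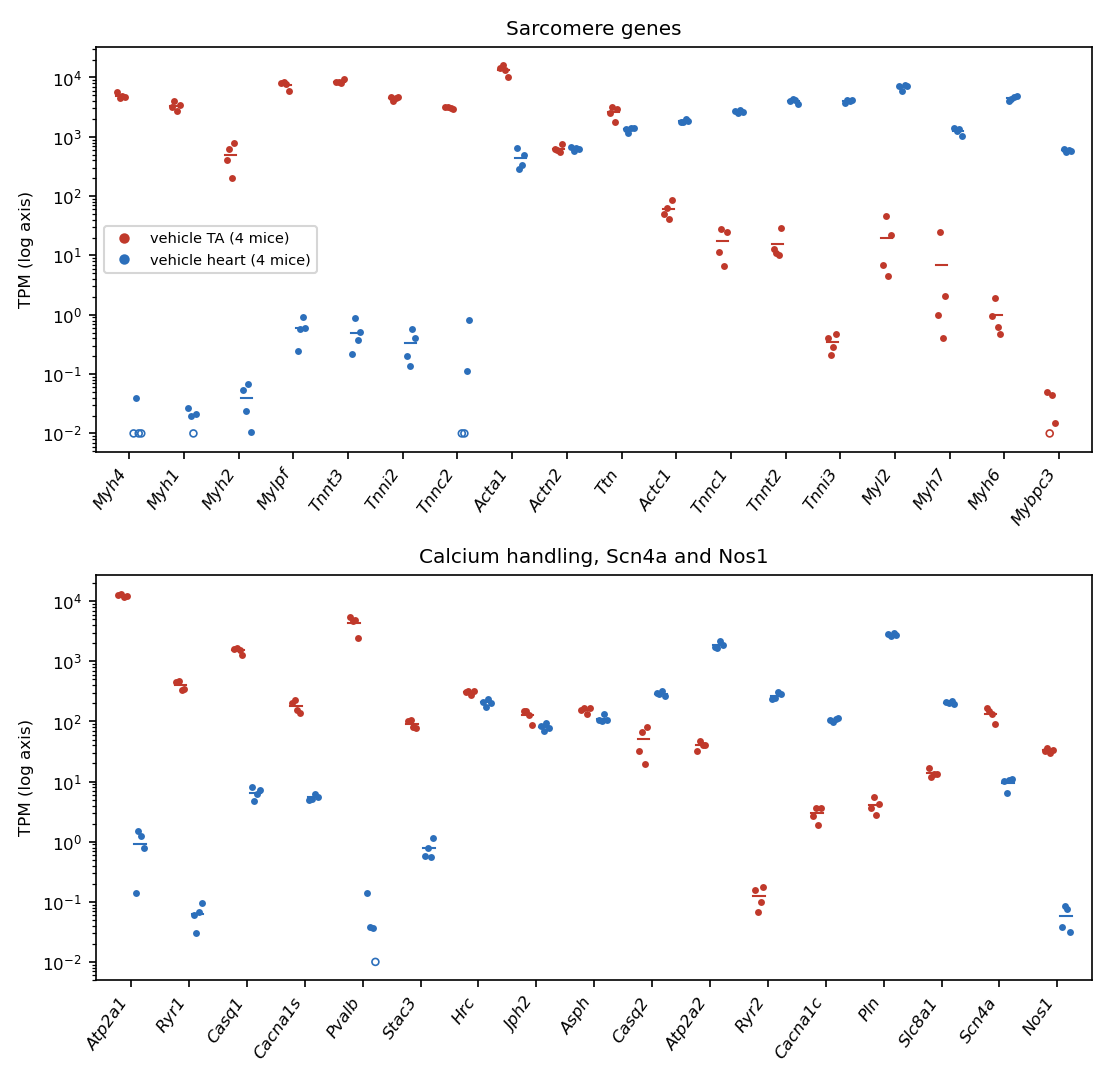
TPM on a log axis of sarcomere genes (top) and of calcium-handling genes, Scn4a and Nos1 (bottom) in each of 4 vehicle TA muscles (red) and 4 vehicle hearts (blue). Bars are group means, given only where no mouse was under 0.01 TPM, and open circles are mice under that level. The tissues are far apart except at Actn2, Ttn, Hrc, Jph2 and Asph, with Casq2 intermediate.

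Calcium handling divided in the same way. Every one of the 12 skeletal genes was called higher in TA, with a median log2 fold change of 6.85, and 8 of 11 cardiac genes were higher in heart, with a median of -3.86. Both counts stood under the 3 other scalings. Atp2a1, the fast-fibre calcium pump SERCA1, was at 12872, 13285, 11689 and 12334 TPM in the TA muscles and 0.141, 1.51, 1.26 and 0.785 in the hearts. Its cardiac relative Atp2a2 (SERCA2) was at 1749, 1696, 2174 and 1882 TPM in the hearts and 31.7, 46.5, 41.1 and 41.3 in the TA muscles. Neither pump overlapped between tissues. The release channels were split likewise, with Ryr1 at 331 to 477 TPM in TA and 0.0299 to 0.0948 in heart and Ryr2 at 239.7 to 311 in heart and 0.0678 to 0.175 in TA. Pln, the phospholamban that restrains SERCA2, averaged 2798 ± 98.2 TPM in heart and 4.05 ± 1.20 in TA (log2 fold change -9.30 (SE 0.15), adjusted p = 1.3e-10). Pvalb, the parvalbumin that soaks up calcium in fast fibres, was at 2488 to 5452 TPM in TA and 0 to 0.140 in heart.
The cardiac store protein Casq2 was an intermediate case, at 32.6, 67.9, 19.9 and 81.8 TPM in the TA muscles and 296, 284, 316 and 266 in the hearts, while its skeletal relative Casq1 was at 1269 to 1659 in TA and 4.81 to 8.02 in heart. Jph2 and Hrc, of the cardiac list but used by both tissues, were called higher in TA as deposited (log2 fold change 0.61 and 0.56), a call that ended under median-of-ratios and protein-coding scaling. Leaving out heart replicate 2 also ended the Hrc call (0.45), and leaving out TA replicate 1 or 2 or heart replicate 2 or 4 the Jph2 call (0.49 to 0.56).

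Genes of excitability and conduction showed 10 of 21 higher in TA and 10 higher in heart (8 and 11 with protein-coding scaling). The skeletal sodium channel Scn4a averaged 135 ± 32.4 TPM in TA and 9.64 ± 2.14 in heart. The acetylcholine receptor and its organiser at the neuromuscular junction were near 0 in heart, with Chrna1 at 16.9 to 18.7 TPM and Musk at 15.2 to 22.7 TPM in TA against 0.0473 to 0.0799 and 0.0354 to 0.180 in heart. Chrng, the embryonic receptor subunit that returns in denervated or regenerating fibres, was at 1.78, 2.74, 1.26 and 3.03 TPM in the TA muscles, and Chrne, the adult subunit, at 19.6, 21.2, 19.5 and 10.9. Replicate 4 had the lowest Chrne and the highest Chrng. In heart, Kcnip2, a partner of the transient outward potassium channel, averaged 88.7 ± 7.18 TPM beside 0.0152 to 0.143 in TA, and the gap-junction gene Gja1 205 ± 13.1 beside 23.3 ± 9.54.

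Transcription factors that set muscle identity were also divided by tissue. Of 15 skeletal factors 13 passed the filter and all of these were higher in TA (median log2 fold change 4.34), but some, such as Myf6 and Myod1, could pass only through TA. Of 14 cardiac factors 13 passed, and 10 were higher in heart (median -4.64), but some, such as Nkx2-5 and Gata4, could pass only through heart. These counts and medians are thus a description and no support. Protein-coding scaling left the first count as it was and added Srf to the second, for 11. Myf6, the MyoD-family factor of mature fibres, was at 88.8, 77.2, 157 and 86.2 TPM in the TA muscles and was listed at 0 in all 4 hearts. Myod1 itself was at 38.6, 41.3, 58.6 and 25.3 TPM in TA and at most 0.0187 in heart. Nkx2-5, the early cardiac homeobox factor, was at 24.5, 30.4, 28.4 and 22.7 TPM in the hearts and listed at 0 in all 4 TA muscles. Gata4 was at 47.5 to 51.5 TPM in heart and 0 to 0.0264 in TA, Tbx20 at 39.1 to 50.7 and 0.0635 to 0.204, and Hand2 at 26.2 to 42.7 and 0 to 0.0302. Mef2c, which stands on both lists because both muscles use it, was called higher in TA (319.8 to 433 TPM against 32.6 to 49.0), while Mef2a averaged 78.7 ± 6.21 and 69.4 ± 1.75 and was not called.

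Positional genes differed between hind limb and heart as well. Hox genes keep a record of body position into adult life, with paralog groups 6 to 13 used in trunk and limb. Of 24 such genes listed, 14 passed the filter and all of these were called higher in TA, but they could pass only through TA, so this count is no support in itself. The other 10 were low in both tissues. Hoxc10, a hind-limb gene, was at 59.8, 53.6, 53.0 and 45.7 TPM in the TA muscles and listed at 0 in every heart, and Hoxa10 was at 13.4, 13.3, 10.4 and 9.53 TPM in TA and likewise listed at 0 in every heart. Hoxa13 of the distal limb was at 2.03 to 2.80 TPM in TA. Among groups 1 to 5, 10 of 15 passed and 9 were higher in TA (8 with protein-coding scaling), and here too members passed through TA alone, such as Hoxa3, at 2.02 to 5.71 TPM in TA and 0.253 to 0.460 in heart. Hoxb4 overlapped between tissues (0.468 to 0.902 and 0.247 to 0.611 TPM) and was called without heart replicate 2 (0.61, adjusted p = 0.032).

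Most regeneration genes were close to 0 in heart. Of 18 genes of muscle repair, 15 were called higher in TA (14 with protein-coding scaling, where Megf10 lost its call) and 2 higher in heart, the latter being Tnnt2 and Actc1, which working cardiomyocytes use throughout life. Members such as Myog, Mymk and Pax7 could pass the filter only through TA, so the count higher in TA is no support in itself. Embryonic myosin Myh3, made by newly formed fibres, was at 9.58, 9.06, 4.42 and 42.9 TPM in the TA muscles, and neonatal myosin Myh8 at 18.8, 32.6, 17.5 and 39.1 TPM. Replicate 4 carried the most of both. In heart Myh3 was listed at 0 in 3 mice and at 0.00528 TPM in the other, and Myh8 was at 0.0190 to 0.0368 TPM. Myog, which drives myoblasts to differentiate, was at 18.2 to 27.8 TPM in TA and 0 to 0.0719 in heart, and Mymk, the fusion protein myomaker, at 5.98 to 15.2 and 0 to 0.0283. Pax7, the satellite-cell factor, was low, at 1.52, 1.44, 0.711 and 1.08 TPM in TA, and listed at 0 in every heart. The imprinted RNA H19, abundant in growing muscle, averaged 1345 ± 750.5 TPM in TA and 21.1 ± 3.52 in heart (log2 fold change 5.78, adjusted p = 1.2e-07).
Proliferation genes did not follow. Of 13 tested, none was called higher in TA and 1 was higher in heart (3 with protein-coding scaling), Cenpf, at 2.16 to 4.07 TPM in heart and 0.254 to 0.996 in TA. Mki67, present in all cycling cells, was at 2.38, 3.35, 1.15 and 1.32 TPM in the TA muscles and 2.13, 1.73, 1.72 and 1.93 in the hearts, with a log2 fold change of 0.02 (95% interval -0.58 to 0.62, adjusted p = 0.96). Top2a was at 0.912 to 2.62 and 0.979 to 2.40 TPM. At these levels a difference of either sign within that interval was not detectable.

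Both classical cyclin-dependent kinase inhibitors of senescence were higher in TA. Cdkn2a, whose gene-level value joins the transcripts for p16INK4a and p19ARF, was at 4.05, 4.48, 3.86 and 2.11 TPM in the TA muscles and 0.256, 0.424, 0.420 and 0.337 TPM in the hearts (log2 fold change 2.23 (SE 0.22), adjusted p = 3.2e-05). Cdkn1a, the p21 gene induced by p53, was at 55.4, 60.0, 66.6 and 54.2 TPM in TA and 8.13, 8.66, 18.5 and 8.66 in heart (log2 fold change 2.46 (SE 0.23), adjusted p = 2.1e-05). On GRCm39 they lie at chromosome 4, 89192708 to 89212890 (ENSMUSG00000044303) and chromosome 17, 29309936 to 29319701 (ENSMUSG00000023067). The tissues did not overlap for either gene, and Cdkn2a was lowest in TA replicate 4 and Cdkn1a highest, among hearts, in replicate 3. Gadd45a and Gadd45b, DNA-damage and stress-response genes, averaged 35.7 ± 19.2 and 18.6 ± 11.4 TPM in TA (SD, n = 4) and 8.86 ± 1.82 and 3.81 ± 1.22 in heart.
The rest of the list did not move as one. Of 22 genes of senescence and arrest, 9 were higher in TA and 3 in heart, with a median log2 fold change of 0.40 beside 0.16 for all genes. Scaled to nuclear protein-coding genes the counts became 4 and 5 and the median -0.02, and the 4 that stayed higher in TA were Cdkn2a, Cdkn1a, Gadd45a and Gadd45b. Higher in heart under every scaling were Cdkn2c, another kinase inhibitor (1.68 to 3.40 TPM in TA, 3.51 to 5.94 in heart), Glb1, the gene of the enzyme behind senescence-associated beta-galactosidase staining (1.47 to 2.67 and 3.82 to 4.49), and the survival gene Bcl2 (log2 fold change -0.62, adjusted p = 0.005). The Cdkn2c call was lost without TA replicate 3 (-0.71, adjusted p = 0.051), heart replicate 2 (-0.61, adjusted p = 0.067) or heart replicate 4 (-0.70, adjusted p = 0.064). Trp53 averaged 12.4 ± 2.41 TPM in TA and 10.6 ± 0.934 in heart and was not called. Lmnb1, the nuclear lamin that senescent cells lose, was at 3.52 to 4.36 TPM in TA and 2.13 to 2.61 in heart, a call ended by median-of-ratios and protein-coding scaling.

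Among secretory factors of senescent cells, those called included metalloproteases and other matrix-related members, whereas no chemokine or interleukin was called. Of 28 tested, 8 were higher in TA and 2 in heart, the first count lying near the 24.1% of all genes, with a median of 0.29. Protein-coding scaling gave 7 and 5 with a median of -0.00085, and with 1 mouse left out the median as deposited was 0.18 without TA replicate 3, 0.61 without TA replicate 4 and 0.64 without heart replicate 2. Mmp12, the elastase of macrophages, was at 81.5, 57.1, 116 and 32.1 TPM in the TA muscles and 5.62, 14.5, 17.2 and 3.87 in the hearts. Mmp2, a gelatinase of fibroblasts, averaged 116 ± 18.5 TPM and 34.0 ± 4.01 (log2 fold change 1.74, adjusted p = 6.4e-06), and Timp1, the metalloprotease inhibitor, 29.1 ± 22.2 and 5.03 ± 1.55 (log2 fold change 2.20, adjusted p = 0.0014). Spp1, osteopontin, was at 59.3, 57.4, 67.6 and 9.36 TPM in TA and 3.39, 5.40, 7.55 and 2.65 in heart, so that TA replicate 4 came close to the hearts. Higher in heart were Gdf15, a stress hormone of the heart and other organs, at 3.83, 2.78, 3.09 and 2.44 TPM against 0.220, 0, 0.198 and 0 in TA, and Igfbp3 (log2 fold change -0.75, adjusted p = 0.0028).
Chemokines were high in 1 mouse. Ccl2, which draws monocytes, was at 13.8, 5.40, 53.8 and 2.79 TPM in the TA muscles and 4.09, 3.62, 3.75 and 4.03 in the hearts, and Ccl7 at 6.14, 2.09, 47.7 and 1.11 and 2.73, 3.11, 3.01 and 2.30. TA replicate 3 was several times above the others, replicate 4 was below every heart for both genes, replicate 2 was above every heart for Ccl2 and below every heart for Ccl7, and neither gene was called (adjusted p = 0.072 and 0.36). Without TA replicate 4, Ccl2 was called, at 1.77 log2 units (adjusted p = 0.029). Il6 was below the filter, with 5.23 TPM in TA replicate 3 and at most 0.836 in any other of the 8 mice. Tgfb1 averaged 20.7 ± 4.28 TPM in TA and 19.2 ± 0.854 in heart, with a log2 fold change of 0.09, a 95% interval of -0.27 to 0.44 and no call.

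**Figure D3:**
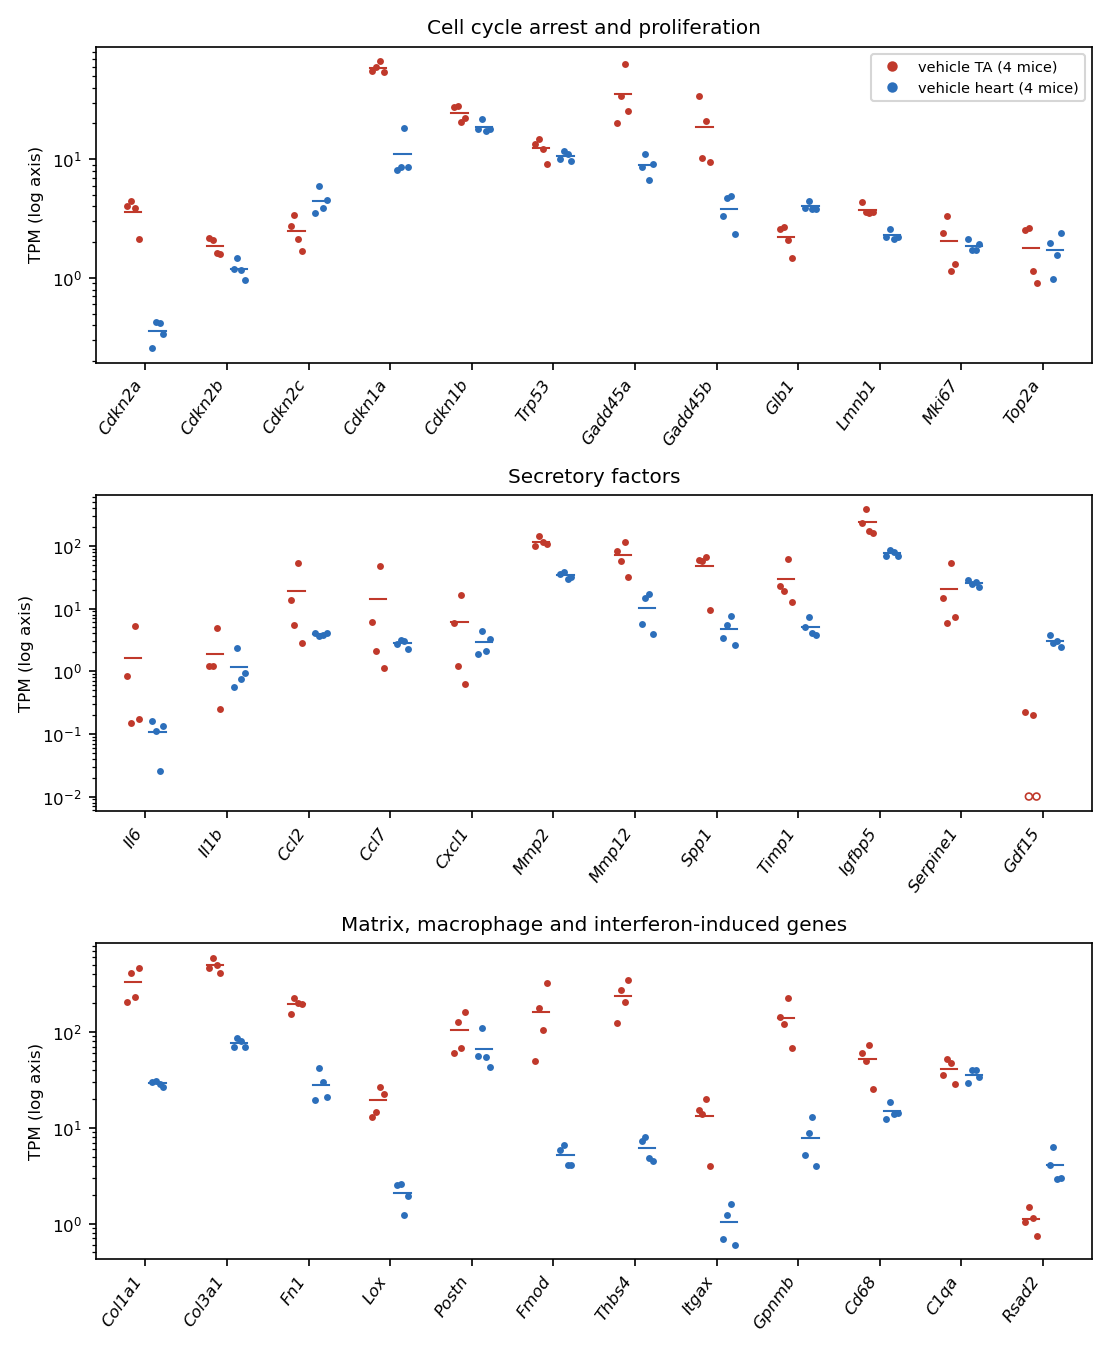
TPM on a log axis of arrest and proliferation genes (top), secretory factors (middle) and matrix, macrophage and interferon-induced genes (bottom) in each of 4 vehicle TA muscles (red) and 4 vehicle hearts (blue). Bars are group means where no mouse was under the plotted floor, shown by open circles; Cdkn2a, Cdkn1a, Mmp2, Col1a1 and Gpnmb do not overlap between tissues, whereas Ccl2 and Ccl7 spread over more than 10-fold within TA.

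Fibrous matrix genes were higher in TA than in heart. Of 20 collagen genes 16 were called higher in TA and none higher in heart, with a median log2 fold change of 1.57. Protein-coding scaling left 12 and none. Col1a1, the main chain of scar collagen, was at 204, 415, 235 and 468 TPM in the TA muscles and 29.9, 31.1, 28.5 and 26.6 in the hearts (log2 fold change 3.40 (SE 0.18), adjusted p = 4.4e-07). Replicates 2 and 4 were the highest of the TA muscles, while the hearts lay close together. Col3a1 averaged 496 ± 76.5 TPM in TA (SD, n = 4) and 76.7 ± 8.04 in heart, and Col12a1, of tendon and healing muscle, 15.1 ± 5.36 and 1.03 ± 0.520. The basement-membrane chains Col4a1 and Col4a2 differed least among called collagens (0.71 and 0.66), and both calls ended with protein-coding scaling.
Among 30 other matrix genes and their enzymes, 21 were higher in TA and 2 in heart, and 15 and 2 with protein-coding scaling. Thbs4 and Fmod, matrix proteins abundant in tendon, averaged 238 ± 95.7 and 163 ± 119 TPM in TA and 6.16 ± 1.75 and 5.15 ± 1.26 in heart. Fibronectin, Fn1, averaged 196 ± 30.2 and 28.2 ± 10.7, and Lox, which cross-links collagen, 19.3 ± 6.58 and 2.08 ± 0.646. Decorin and biglycan, small proteoglycans of the matrix, overlapped between tissues, with Dcn at 428 to 568 TPM in TA and 366 to 557 in heart and Bgn at 205 to 288 and 178 to 332. Postn, the periostin of activated fibroblasts, overlapped between tissues (60.1 to 163 and 43.1 to 110.3 TPM). Its call (log2 fold change 0.63, adjusted p = 0.042) was lost with protein-coding scaling and without TA replicate 2 (0.65), 3 (0.64) or 4 (0.50) or heart replicate 3 (0.38) or 4 (0.60). Higher in heart were the metalloprotease inhibitor Timp3 (log2 fold change -0.60, adjusted p = 0.0055, lost without heart replicate 2 at -0.49) and the proteoglycan Ogn (log2 fold change -0.63, adjusted p = 0.0052).
In the TGF-beta pathway, 11 of 25 genes were higher in TA and 3 in heart (7 and 6 with protein-coding scaling). Among ligands of the pathway, Mstn, the myostatin that limits muscle growth, was at 9.07 to 16.5 TPM in TA and 0.123 to 0.235 in heart, and its antagonist Fst at 6.10 to 27.9 and 0.441 to 2.04. The signal carrier Smad3 averaged 39.8 ± 10.9 and 8.01 ± 0.840 TPM. Ccn2, a matrix-bound target of the pathway, was higher in heart, at 66.1 to 148 TPM against 26.3 to 64.1. Tendon markers moved with the matrix genes. Of the nerve, Schwann cell and tendon list, 9 of 14 were higher in TA and 1 in heart, its summed level being 259 to 502 TPM in TA and 48.7 to 67.1 in heart. Tnmd, the tendon marker tenomodulin, was at 11.3, 40.6, 15.3 and 45.3 TPM in the TA muscles and 0.0483 to 0.371 in heart, highest in replicates 2 and 4 as was Col1a1. The general fibroblast list showed 4 of 17 higher in TA and 2 in heart, the first count lying near the 24.1% of all genes, and 2 and 5 with protein-coding scaling, where the median moved from 0.17 to -0.26. Its surface marker Pdgfra averaged 24.2 ± 3.68 and 17.2 ± 2.15 TPM (log2 fold change 0.47, adjusted p = 0.023), a difference called without TA replicate 1 (0.52) or 4 (0.57) or heart replicate 2 (0.56). The part of tendon or fibroblast content in the matrix difference was not tested.

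Many macrophage genes were higher in TA. Of 28 myeloid genes 16 were higher in TA and 4 in heart, and 14 and 4 with protein-coding scaling. Gpnmb, a lysosomal glycoprotein of lipid- and debris-laden macrophages, was at 142, 120.1, 228 and 67.9 TPM in the TA muscles and 5.20, 8.81, 13.1 and 4.01 in the hearts. Itgax (CD11c) was at 15.2, 13.8, 19.8 and 4.03 TPM in TA and 0.695, 1.22, 1.59 and 0.601 in heart. Replicate 4 was the lowest TA for both, and no TA overlapped a heart. Ctsk, cathepsin K, and Lgals3, galectin 3, averaged 59.1 ± 19.5 and 68.6 ± 28.6 TPM in TA and 5.16 ± 1.18 and 9.08 ± 4.35 in heart. Complement C1qa, made by most resident macrophages, overlapped (28.5 to 52.2 and 29.7 to 40.0 TPM, log2 fold change 0.16). The 4 genes higher in heart were Timd4, Lyve1, Folr2 and Cd163, which mark long-lived resident macrophages, with Timd4 at 0.961 to 2.24 TPM in heart and 0.149 to 0.250 in TA. Lyve1 lost its call without TA replicate 1, 2 or 4 or heart replicate 2 or 3 (log2 fold change -1.001 to -0.833), Folr2 without TA replicate 3 or heart replicate 2, 3 or 4 (-0.76 to -0.67) and Cd163 without TA replicate 1 or 4 or heart replicate 4 (-0.55 to -0.48).
Lymphocyte genes were near the limit of the filter, which 8 of 20 passed. Cd3e of T cells was at 0.908 to 2.38 TPM in heart and 0.0773 to 0.328 in TA, and Cd79a of B cells at 0.519 to 1.81 and 0.0259 to 0.300, both called higher in heart, while Ighm, the IgM heavy chain of B cells, was higher in TA (19.4 to 58.1 TPM against 6.57 to 11.2). Antigen presentation and interferon genes divided by class, with 4 of 22 higher in TA and 10 in heart (3 and 17 with protein-coding scaling). The 4 higher in TA were the MHC class II genes H2-Aa, H2-Ab1, H2-Eb1 and Cd74, H2-Eb1 losing its call with protein-coding scaling. Cd74 was at 132, 203, 122 and 120.0 TPM in the TA muscles and 75.0, 72.0, 57.2 and 66.5 in the hearts. Interferon-induced Rsad2 was at 2.92 to 6.29 TPM in heart and 0.750 to 1.50 in TA, Ifit3 at 4.54 to 7.22 and 1.52 to 3.35, and Ifi27l2a at 21.4 to 47.8 and 5.21 to 16.5, all 3 without overlap.

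Fuel genes were divided between the tissues. Of 35 genes for taking up and burning fatty acids, 30 were higher in heart and 2 in TA, with a median log2 fold change of -1.29. Of 35 genes of glycolysis and glycogen, 25 were higher in TA and 8 in heart, with a median of 1.48. Protein-coding scaling gave 33 against 1 and 22 against 9. Fabp3, the fatty-acid carrier of heart and slow muscle, was at 2339, 1814, 2504 and 2286 TPM in the hearts and 344, 246, 247 and 241 in the TA muscles (log2 fold change -3.05 (SE 0.14), adjusted p = 1.7e-07). Lpl, which frees fatty acids from circulating lipid, averaged 809 ± 61.7 TPM in heart (SD, n = 4) and 139 ± 24.0 in TA, and Hadhb, of the mitochondrial trifunctional protein, 375 ± 46.9 and 98.4 ± 21.2. Against the trend, Ucp3, an uncoupling protein of skeletal muscle, averaged 54.7 ± 13.2 TPM in TA and 13.9 ± 2.70 in heart.
Several steps of glycolysis used a different isozyme in each tissue. Lactate dehydrogenase was mostly Ldha in TA (716 to 1180.1 TPM, beside 53.3 to 115 of Ldhb) and mostly Ldhb in heart (691 to 756, beside 185 to 229.6 of Ldha). Glycogen phosphorylase in TA was Pygm (1275 to 1829.6, beside 3.60 to 7.24 of Pygb), while heart held both (301 to 331 and 189 to 217). Hexokinase 1 averaged 63.9 ± 9.13 TPM in heart and 10.7 ± 1.18 in TA. Slc16a3, which exports lactate, was at 71.7 to 141 TPM in TA and 0.795 to 1.20 in heart, and Slc16a1, which also imports it, at 15.4 to 22.2 and 40.4 to 48.4. Levels of glycolytic enzymes were highest for aldolase, Aldoa, at 6265 to 10406 TPM in TA and 1241 to 1413 in heart.

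Respiratory chain genes differed far less than the genes that feed it. Of 48 nuclear-encoded subunits and partners, none was higher in TA and 9 were higher in heart, with a median log2 fold change of -0.27 beside 0.16 for all genes. Without TA replicate 4 the median of the list was -0.14. The count followed the scaling closely, being 23 after median-of-ratios scaling and 42 when scaled to nuclear protein-coding genes, with none higher in TA in any of them. The cytochrome oxidase subunit Cox8a had the most negative value (log2 fold change -0.95, adjusted p = 0.0017). Cox6a2, a muscle-type subunit, averaged 1169 ± 90.9 TPM in heart and 705 ± 78.7 in TA. Among the 13 proteins of the mitochondrial genome 1 was called, mt-Co1, at 57692 to 63627 TPM in heart and 40175 to 41913 in TA, and the median was 0.02 (2 called, higher in heart, and a median of -0.41 with protein-coding scaling); scaled without the mitochondrial genome these genes cannot be tested. Reads of mitochondrial genes can be shared with near-identical nuclear copies, so single values there are uncertain.

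**Figure D4:**
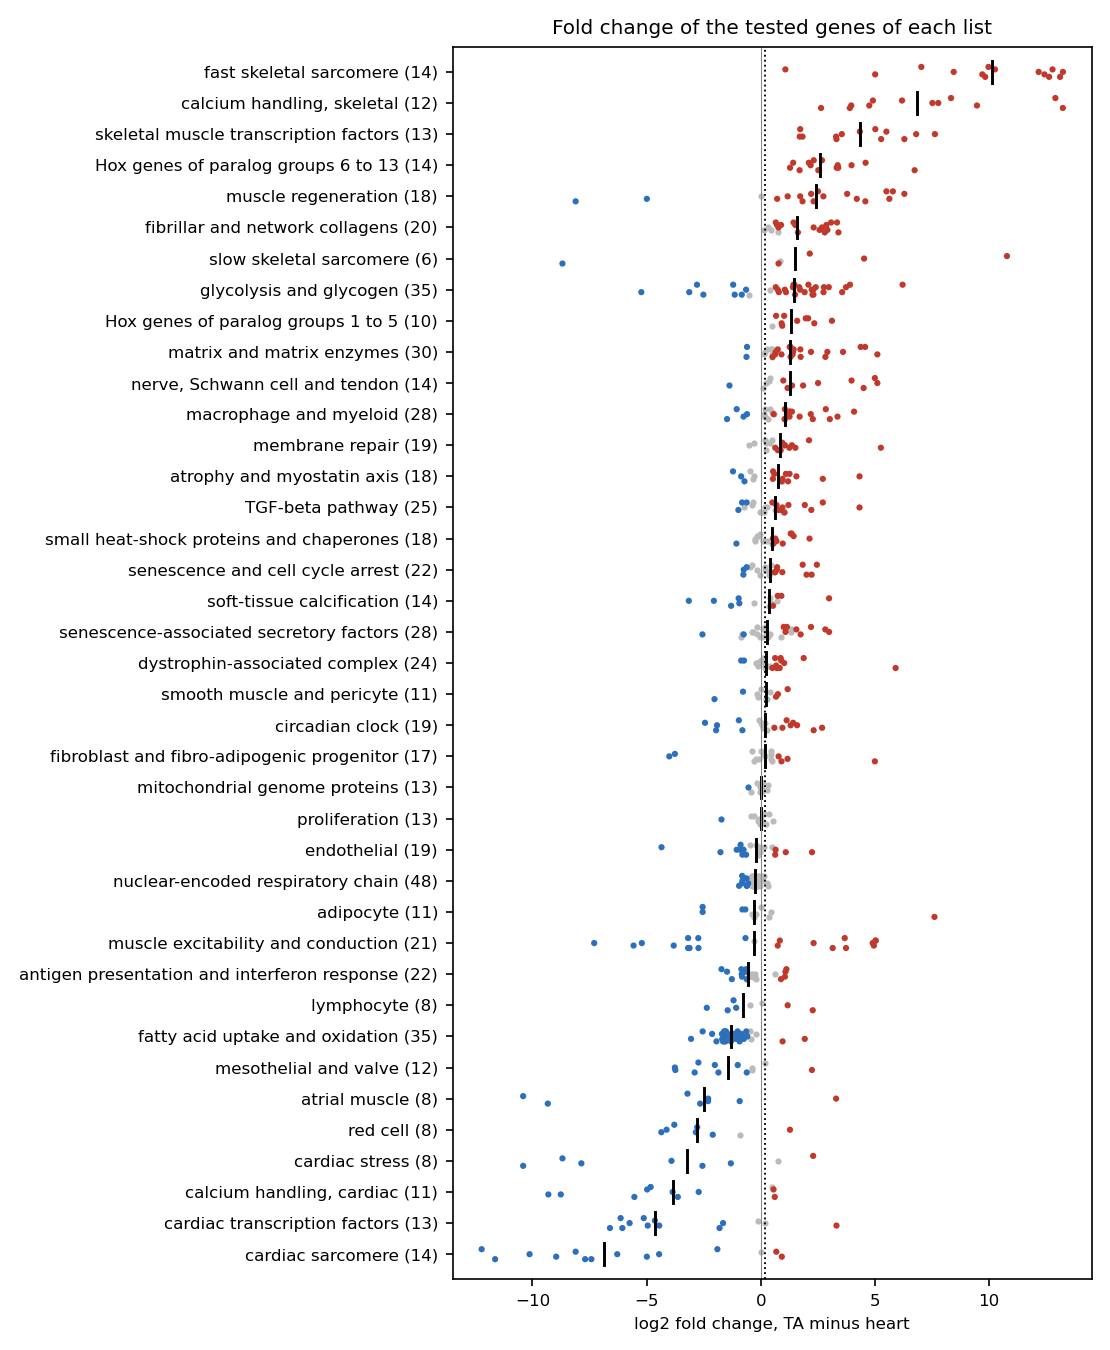
Log2 fold change, TA minus heart, of the tested genes of each list (number tested in parentheses), as deposited, with called genes in red or blue, uncalled genes in grey, list medians as black bars, the median of all 16893 genes as a dotted line and 0 as a thin line. The lists run from the fast skeletal sarcomere (median 10.11) to the cardiac sarcomere (-6.85), and fatty acid oxidation and glycolysis lie on opposite sides of the dotted line.

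Genes of the dystrophin-associated complex, the assembly that mdx muscle cannot complete, lay closer to each other than the sarcomere genes. Of 24 members and partners 10 were called higher in TA and 2 in heart, and 3 and 6 with protein-coding scaling. Dmd RNA itself, which carries the stop, was at 53.6, 51.9, 42.6 and 54.3 TPM in the TA muscles and 32.1, 26.8, 34.5 and 29.8 in the hearts (log2 fold change 0.71, adjusted p = 0.0013, a call lost with protein-coding scaling). Utrn, the utrophin that can stand in for dystrophin, averaged 29.2 ± 5.94 TPM in TA and 31.7 ± 3.28 in heart, with a 95% interval of the log2 fold change of -0.42 to 0.16. Nos1 and Dtna, a dystrobrevin, were higher in TA under every scaling. Nos1, the neuronal nitric oxide synthase that the complex tethers to the skeletal muscle membrane, was at 32.2, 35.8, 30.0 and 33.7 TPM in the TA muscles and 0.0382, 0.0854, 0.0758 and 0.0310 TPM in the hearts (log2 fold change 5.90 (SE 0.12), adjusted p = 7.9e-10). Agrn and Lama5, agrin and a laminin chain, were higher in heart (-0.86 and -0.74).
Membrane repair genes were higher in TA for 12 of 19 (8 with protein-coding scaling) and in heart for none (2 with that scaling, Trim72 and Ehd1). The muscle protease Capn3 was at 38.6 to 52.6 TPM in TA and 0.560 to 0.928 in heart, and annexin A1, Anxa1, averaged 59.1 ± 20.2 and 19.5 ± 3.69. Dysf, the dysferlin of membrane patching, was at 23.4 to 33.0 and 21.7 to 26.7 TPM and was not called. In the atrophy list 11 of 18 genes were higher in TA and 3 in heart (7 and 6 with protein-coding scaling), and the ubiquitin ligase Fbxo32 (atrogin-1) averaged 70.2 ± 14.4 TPM in TA and 29.9 ± 2.86 in heart. Of 18 chaperone genes 9 were higher in TA (3 with protein-coding scaling), led by the small heat-shock genes Hspb3 (2.13) and Hspb6 (1.35), and 1 was higher in heart (3 with that scaling), Hspb7 (-1.07), while alpha-B-crystallin, Cryab, averaged 904 ± 20.7 and 963 ± 94.9.

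Most of the cardiac stress and atrial genes listed were higher in heart than in TA. Nppa, atrial natriuretic peptide, was at 688, 2956, 1268 and 574 TPM in the hearts and 0.167 to 0.523 in TA, and Nppb, the related peptide of the strained ventricle, at 196, 206, 206 and 118 and 0.0636 to 0.907. Ankrd1, a stretch-responsive titin-binding gene, averaged 1202 ± 222 TPM in heart and 98.2 ± 78.4 in TA. Of 8 cardiac stress genes, 6 were higher in heart, and Xirp2, an actin-binding protein of the intercalated disc and of strained fibres, was higher in TA (807 to 1047 TPM against 168 to 239.8). With no dystrophin-bearing heart among these libraries, these levels cannot be set against a healthy heart.
Markers of other cell types differed too. Mesothelial and valve genes were higher in heart for 8 of 12 (10 with protein-coding scaling), among them Upk3b, at 4.66, 6.36, 7.52 and 6.53 TPM in the hearts and listed at 0 in every TA, and Wt1 of the epicardium, averaging 7.57 ± 0.631 TPM in heart beside 0.0132 to 0.371 in TA. Red-cell genes were higher in heart for 6 of 8 (7 with that scaling), Alas2, the red-cell heme enzyme, being at 47.5, 103, 23.3 and 26.9 TPM in the hearts and 1.13 to 4.06 in TA. Globin copies are near-identical, so their split is uncertain, but Hbb-bs was at 255 to 951 TPM in heart and 12.5 to 39.1 in TA. Endothelial genes showed 8 of 19 higher in heart and 4 in TA (11 and 2 with protein-coding scaling). The pan-endothelial Pecam1 averaged 43.1 ± 6.07 TPM in TA and 47.1 ± 4.76 in heart, Vwf was higher in heart (3.33 to 4.55 in TA, 11.4 to 24.2 in heart) and Ackr1, of venules, higher in TA (1.86 to 8.21 against 0.160 to 0.497). Prox1, of lymphatic endothelium and also of cardiomyocytes, was at 27.0 to 28.4 TPM in heart and 0.800 to 0.980 in TA. Of 11 adipocyte genes tested, 4 were higher in heart and 1 in TA (5 and 1 with protein-coding scaling). The marker Adipoq was low in both and overlapped, at 0.357 to 2.01 TPM in TA and 0.513 to 3.29 in heart. Higher in TA was Car3, a carbonic anhydrase of fat and of slow muscle, averaging 2157 ± 407 TPM in TA and 12.8 ± 9.96 in heart. Smooth-muscle genes overlapped for most of the list, 3 of 11 being higher in TA and 2 in heart (1 and 3 with protein-coding scaling), and Acta2, smooth-muscle actin, averaged 268 ± 63.7 TPM in heart against 64.8 ± 11.3. Soft-tissue calcification, a known feature of the DBA/2 background, was followed through 26 genes, of which 14 passed the filter, 4 were higher in TA and 5 in heart (2 and 6 with protein-coding scaling). Mgp, the matrix Gla protein that restrains calcification, was higher in heart (81.9 to 215 TPM in TA, 223 to 418 in heart), as was Nt5e (log2 fold change -2.05, adjusted p = 2.1e-05).

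Circadian genes were called in both directions. Bmal1, the positive arm of the clock, was at 13.4, 12.2, 11.8 and 13.5 TPM in the TA muscles and 2.41, 2.03, 3.15 and 1.35 in the hearts (log2 fold change 2.32 (SE 0.19), adjusted p = 9.7e-06), and Npas2 and Nfil3 were higher in TA with it. Dbp, an output gene that peaks when Bmal1 is low, was at 25.0, 22.3, 13.9 and 7.61 TPM in TA and 53.9, 77.3, 50.2 and 71.4 in heart (log2 fold change -1.96 (SE 0.33), adjusted p = 9.7e-04), and Ciart and Hlf were higher in heart with it. In D+Q mice the Dbp difference was called in the other direction, at 0.65 (adjusted p = 0.047), though Dbp was not among the genes called by the interaction test described below. In all, 8 of 19 circadian genes were higher in TA and 5 in heart (7 and 6 with protein-coding scaling). The times of day at which the tissues were taken are not given in the sources used here, and their part in these values was not tested.

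Some abundant genes were level. Among genes with a mean of at least 100 TPM in both tissues and a 95% interval within 0.5 log2 units of 0, the smallest differences were those of the ribosomal protein genes Rps16 (137 to 206 TPM in TA, 166 to 198 in heart, 95% interval -0.32 to 0.32), Rpl19 (163 to 220.3 and 174 to 191) and Rpl9 (117 to 167 and 132 to 163), of the small RNA Scarna13 and of the mitochondrial-like copy Gm10222. Being level holds for TPM as deposited only, since the scalings shift all genes together.

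As deposited, TA muscles varied more among themselves than hearts did. The median SD of log2(TPM + 0.5) over the 4 mice was 0.273 in TA and 0.165 in heart, and 75.5% of genes had the larger SD in TA. Without TA replicate 4 the TA median was 0.217. A shift of a whole library also enters these values. The share of nuclear protein-coding genes ran from 40.5% to 50.3% in TA and from 33.0% to 35.7% in heart. Its part in the spread was not tested, since no other scaling was tried for this result. Among the most variable genes as first ranked, most were small nuclear and 7SL RNAs, so the protein-coding genes were ranked alone, a choice made after these values had been seen. Among these, after the histone gene H2ac19 and 2 Y-linked genes, the highest ranks in TA went to Fos, C7, Rrad, Ccl7 and Chad. Fos, an immediate-early gene, was at 287, 8.82, 223 and 55.2 TPM in the TA muscles, Rrad, a small GTPase induced by injury, at 31.5, 11.1, 241 and 7.59 TPM, and the metallothionein Mt2 at 245, 146, 1957 and 233 TPM. Replicate 3 was the highest for Rrad and Mt2, as for Ccl2, Ccl7 and the alarmin Il33 (6.04, 4.03, 27.2 and 2.75), while replicates 2 and 4 were low. Rrad was not called between tissues (log2 fold change -1.06, adjusted p = 0.25) but was called higher in heart without TA replicate 3 (-1.95, adjusted p = 0.0012). Slow-fibre and tendon genes varied in another pattern, with Myl2, Tnni1, Casq2, Fmod and Tnmd higher in replicates 2 and 4, the 2 females, than in replicates 1 and 3, the 2 males. With 2 mice of each sex, sex and mouse cannot be told apart.
In heart, after 2 Y-linked genes, the highest ranks went to Mybphl, the stress-response factor Atf3, Myl7, Sln, Myl4 and Sbk3, of which all but Atf3 were followed as atrial or atrial-pattern genes. Myl4, the atrial essential light chain, was at 72.0, 515, 355 and 205 TPM in the hearts, sarcolipin Sln at 7.86, 60.0, 40.5 and 22.0 TPM, Mybphl at 4.52, 59.7, 30.0 and 16.9 TPM and the kinase gene Sbk3 at 4.68, 30.6, 24.4 and 15.7 TPM. All 4 were lowest in replicate 1 and highest in replicate 2, in the order of Myl7. Bmp10, of the right atrium, ran differently, at 1.64, 0.106, 16.3 and 20.4 TPM, lowest in replicate 2, and it was listed at 0 in every TA. Its call was lost without TA replicate 1 (adjusted p = 0.054) or 3 (adjusted p = 0.052) or heart replicate 3 (adjusted p = 0.060) or 4 (adjusted p = 0.065). The dissection of atria from these hearts is not described in the sources used here, and the part of atrial tissue in these values was not tested. Red-cell Alas2 was also highest in heart replicate 2.

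**Figure D5:**
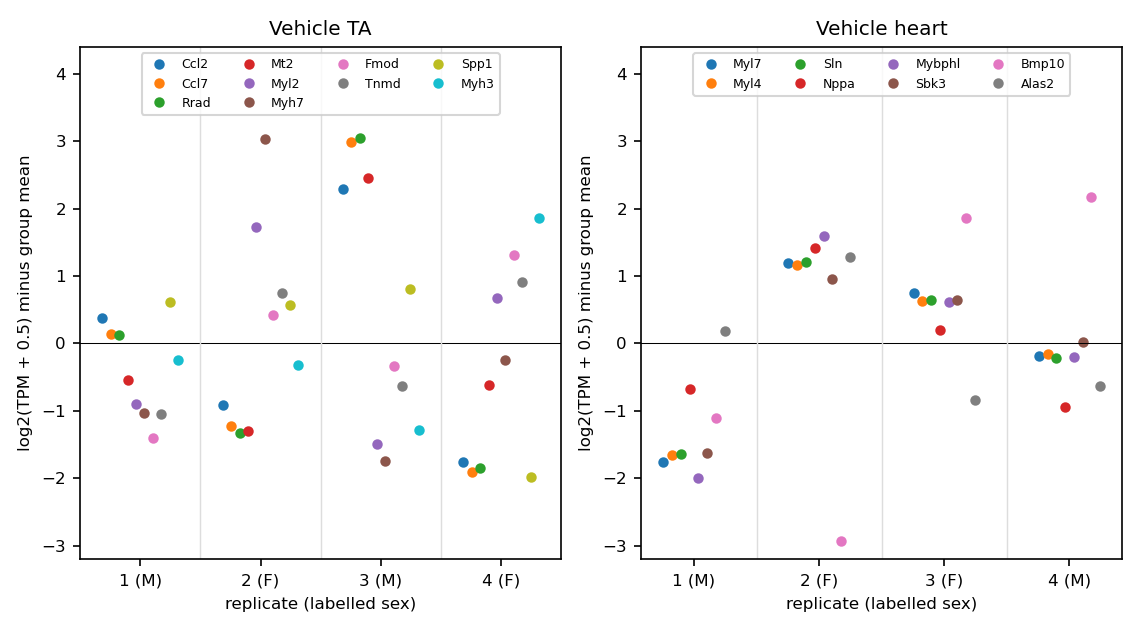
Log2(TPM + 0.5) minus the mean of the group for variable genes in each vehicle TA muscle (left) and heart (right), with labelled sex in parentheses on the x axis; each point is 1 gene in 1 mouse, and grey lines part the mice. In TA, Ccl2, Ccl7, Rrad and Mt2 are high in replicate 3 and Myl2, Fmod and Tnmd in replicates 2 and 4; in heart, Myl7, Myl4, Sln, Mybphl and Sbk3 are low in replicate 1 and high in replicate 2.

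The tissue difference was measured again in D+Q mice. There 6047 genes were called between 4 TA muscles and 3 hearts, 35.8% of those tested, 3429 higher in TA and 2618 in heart. Of the 6572 genes called in vehicle mice, 6458 (98.3%) had the same sign in D+Q mice and 4945 (75.2%) were also called there, which is 81.8% of the genes called in D+Q. A further 8 were called in the opposite direction, among them the atrial genes Myl4 and Sln and the circadian genes Per2 and Dbp. These D+Q values carry a limit of their own. All 4 D+Q TA mice were male, and all 3 D+Q hearts had high Xist and almost no Ddx3y, the library labelled male among them with 47.2 TPM of Xist and 0.0159 TPM of Ddx3y, so sex and tissue cannot be told apart in that group.
A test of the interaction of tissue and treatment called 12 genes (0.071%), 1 with a higher and 11 with a lower fold change in vehicle mice. An unadjusted p under 0.05 was reached by 712 of the 16893 tested genes, no more than chance alone would give. Atrial genes were among the 12 called. For Myl4 the fold change was -2.31 in vehicle mice and 3.83 in D+Q mice, a difference of -6.88 in the joint fit of all 15 libraries (adjusted p = 7.7e-05), and for Sln -2.30 and 2.47 (difference -5.67, adjusted p = 1.5e-04). Vehicle TA replicate 4 lay above vehicle heart replicate 1 for both genes. In the D+Q hearts Myl4 was at 3.96, 4.62 and 2.05 TPM, Sln at 0.416, 0.176 and 0.0408 and Myl7 at 3.99, 4.54 and 3.46, below every vehicle heart, whereas Myl4 in D+Q TA was at 79.6, 34.6, 69.2 and 46.6 TPM. The remaining coding genes were Myl7, Mybphl, Sbk3, Dkk3, Ryr3, the platelet tubulin Tubb1 and 2 circadian genes. Bmal1 differed by 2.32 between vehicle tissues and by 0.28 between D+Q tissues, and Per2 by -0.96 and 0.79. The other 2 were small RNA genes, Gm23734 and Gm56431, listed at 0 in every vehicle TA. When sex was read from Xist in place of the label, a choice made after the data had been seen, 1 gene had a higher and 13 a lower fold change. Treatment and the amount of atrial tissue in each heart sample cannot be told apart here.

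The genes that the study names for its drug comparisons were also set side by side between vehicle tissues. The study chose that list on libraries that include these 8, so its counts are no independent evidence. Of 34 tested, 9 were higher in TA and 9 in heart, beside 24.1% and 14.8% of all genes. With protein-coding scaling 6 were higher in TA and 11 in heart, beside 2028 and 4717 of all 16893 genes. Kcnk3, a background potassium channel, was at 55.4 to 64.0 TPM in heart and 0.339 to 0.557 in TA, and Pde3a, a cardiac phosphodiesterase, at 21.3 to 23.4 and 3.60 to 4.26. Mmp19, a metalloprotease, averaged 13.6 ± 7.78 TPM in TA and 2.43 ± 0.488 in heart, Irs1, an insulin receptor substrate, 38.5 ± 6.70 and 9.77 ± 1.20, and Aebp1, a collagen-binding repressor, 56.1 ± 8.59 and 15.9 ± 2.14. Igfbp5 was higher in TA (161 to 380.2 TPM against 67.8 to 86.6). Rcan1, a calcineurin regulator, overlapped, at 46.4, 27.1, 209 and 37.7 TPM in the TA muscles and 36.2, 32.5, 39.2 and 25.9 in the hearts, with replicate 3 alone far above. Ppargc1a, a driver of mitochondrial growth, averaged 26.3 ± 9.76 and 34.8 ± 6.99 TPM (log2 fold change -0.44, adjusted p = 0.12, called without TA replicate 4 at -0.65).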

How the data were processed

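Bulk RNA-seq of TA muscle and heart was deposited as 1 table of TPM values for 15 mice. According to the labels and methods, the authors trimmed reads with Trim Galore 0.6.10 and quantified transcripts with Salmon 1.10.3 on GRCm39, and the deposited TPM values are given per gene and sum to 1000000 per library. Length correction and this fixed total remove read depth, so depth per library is unknown, no counting interval is given, and tests for raw counts (such as the one the study used) could not be run. p-values set a difference between groups against the spread between mice.

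Groups came from the labels. TPM was used as deposited, genes with at least 0.5 TPM in 3 of 8 mice were kept, and log2(TPM + 0.5) was fitted in R 4.3.3 with limma 3.58.1 (moderated, trended variance; tissue and labelled sex), with Benjamini-Hochberg adjustment. The D+Q contrast used 7 libraries and no covariate, and the interaction all 15 with labelled sex. Scripts were tested on simulated data. Gene names and positions came from GENCODE M39, promoters from RefSeq.

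The members, the gene lists and the alternatives were chosen with earlier results of these data known. Named were genes of these lists, the 12 largest called differences in each direction (mean of at least 10 TPM, no overlap), the 10 most abundant and 10 most variable genes of each tissue and the 5 abundant genes closest to no difference, besides genes of the interaction; some genes of the lists are not reported here by name. Lists were described by counts and medians and not tested. Alternatives were other pseudocounts, filters, scalings and covariates, a replicate block, each sex alone and leaving out each mouse.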

Additional observations from a re-analysis of the deposited data

Results flagged for a closer look

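In each tissue, the TPM of the 221 genes named in the text or figures was screened where a mouse reached 1 TPM (191 genes in TA, 183 in heart) for a mouse lying apart from the other 3, by Dixon's gap ratio above its 95% critical value, which chance exceeds in about 1 of 20 groups. This singled out 34 values, 22 in TA and 12 in heart, where chance would give about 10 and 9. A single value here therefore carries little weight, in heart above all. Some of these genes were named because they varied most between mice. The chance figures do not hold for such genes, so the excess in TA carries no weight either. TA replicate 3 was high for a set of injury, inflammation and fibre genes, with Ccl7 at 47.7 TPM, Il6 at 5.23, Il33 at 27.2, Mt2 at 1957, Rrad at 241, Rcan1 at 209, Myf6 at 157 and Gja1 at 37.5. TA replicate 4 was high for the newly formed fibre genes Myh3 (42.9 TPM) and Tnnt2 (28.6), the cartilage matrix gene Chad (117), the mitochondrial gene mt-Atp8 (113886) and the mitochondrial-like copies Gm10222 (29308) and Gm28661 (43196), and low for Chrne (10.9), Myl1 (5588) and Rpl9 (117). TA replicate 1 was high for Fabp3 (344 TPM) and Lmnb1 (4.36), and TA replicate 2 for Myh7 (24.5), Cd74 (203) and Dkk3 (3.05).

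Heart replicate 2 was high for Aebp1 (19.1 TPM), Glb1 (4.49), Il33 (7.85), Lmnb1 (2.61) and Ogn (71.6). Heart replicate 3 stood apart for Cdkn1a (18.5 TPM), Asph (132) and Lpl (900.1), heart replicate 1 for Tnni3 (3775), Xirp2 (239.8) and Gm10222 (25474), and heart replicate 4 for Nppb (118).

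The tissue difference itself differed between vehicle and D+Q mice, by the interaction test, for 12 genes. Vehicle minus D+Q differences of the log2 fold change were -6.88 for Myl4, -6.69 for Myl7, -5.67 for Sln, -5.20 for Mybphl, -3.94 for Sbk3, -2.60 for Dkk3 and -1.60 for Ryr3. They were -2.46 for Tubb1, -1.99 for Per2, 1.90 for Bmal1, -3.66 for Gm23734 and -1.65 for Gm56431. Myl7, Gm23734 and Gm56431 were listed at 0 in every vehicle TA, so the size of their values depends on the pseudocount.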

How the results depend on the processing

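As deposited, 4073 genes were called higher in TA and 2499 higher in heart. Scaled to nuclear protein-coding genes the counts were 2028 and 4717, and with a minimum log2 fold change of 1 they were 1741 and 1361. In females alone they were 1994 and 1684. In each case the construction (another total, another threshold, 4 mice) differs from the main one. Males alone, also 4 mice, gave 4339 and 2130, and the cause of this difference between the sexes was not tested. The remaining settings gave 2977 to 4921 higher in TA and 2069 to 3285 higher in heart. Leaving out 1 mouse gave 3537 (without TA replicate 2) to 4970 (without TA replicate 4) higher in TA and 2241 (without TA replicate 4) to 2728 (without TA replicate 2) higher in heart. With the replicate number as a replicate block in place of sex, 4104 and 2510 genes were called. The numbers do not pair mice, since TA muscles came from mice 5 months old and hearts from mice 16 months old. Deviations from the group means correlated at -0.035 to 0.046 for same-numbered samples and at -0.056 to 0.109 for samples of different number. The interaction called 1 gene higher and 11 lower, 2 and 11 after median-of-ratios scaling, and 3 and 8 without a covariate. The median SD between mice was 0.217 to 0.292 in TA and 0.139 to 0.164 in heart with 1 mouse left out.

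Of the called genes named here, none changed sign under any setting run. Uncalled Rn7s2 (1.54) was called at -0.88 in males alone and at -1.63 without TA replicate 4, with values of -1.63 to 3.75 over all mice left out in turn, and uncalled C7 at 0.70 in males alone; the cause was not tested. H2ac19 was called at -3.57 without TA replicate 4, and Ehd1 at -0.65 without TA replicate 2 or 3. TPM carries no depth, so the counting error of low values is unknown and their precision could be judged only from the spread between mice.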
